A study of Mus musculus with 8 samples.

Results

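The genes described here are the machinery of MHC class I antigen presentation in 3 cell lines from mouse epithelioid hemangioendothelioma (EHE), a rare tumour of vascular endothelial cells. The 34 genes were listed by name and found by matching Ensembl identifiers of the count table to mouse symbols, and all 34 of 34 were present among 55401 identifiers. They are 9 heavy chain genes, the light chain gene B2m, 7 transport and loading factors, 2 trimming peptidases, 3 inducible and 3 constitutive catalytic subunits of the proteasome, 4 proteasome activators, 3 transcription regulators and 2 presenters of lipids or metabolites. PolyA RNA was sequenced from the line EHE26 (2 libraries), the line EHE17 (3 libraries) and the line EHE6 (3 libraries). The labels give no treatment, genotype, mouse strain or H2 haplotype for any line, do not say how each line was derived or whether it is a clone, and do not say whether the libraries of a line came from separate cultures, so a p-value here measures the spread between these libraries, which may be technical. All 3 pairs of lines were compared, and no other question is stated in the labels.

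Class I molecules display short peptides from the cytosol to CD8 T cells and are also read by natural killer cells. The proteasome makes the peptides, the TAP transporter carries them into the endoplasmic reticulum, and the peptide loading complex fits them to a heavy chain paired with beta-2 microglobulin. Interferon gamma is known to raise most of these genes, to swap the constitutive catalytic subunits of the proteasome for inducible ones in newly built particles (the immunoproteasome), and to induce Nlrc5, the transactivator of class I promoters.

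Of the 34 genes 15 lie on chromosome 17, and all 9 heavy chain genes are among them. Promoter windows of RefSeq on GRCm38.p6 were at hand for 27 members (29 windows, as a gene may have more than 1 start). The windows below are shown because most of these genes moved together between the lines, while Psmb5 was called in no comparison. Each is the 200 bases before the RefSeq start, written 5′ to 3′ on the strand of the gene. Capitals mark the core GAAANNGAA of the interferon-stimulated response element, the core TTCACTTCT of the class I interferon consensus sequence and the NF-kB core GGGNNTTCC of enhancer A, each searched on both strands.
H2-K1 (chr17:34000334-34000533, minus strand): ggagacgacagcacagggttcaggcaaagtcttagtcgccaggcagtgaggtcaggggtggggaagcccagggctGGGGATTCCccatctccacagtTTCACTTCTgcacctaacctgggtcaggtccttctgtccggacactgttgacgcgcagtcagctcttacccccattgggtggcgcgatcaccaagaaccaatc
H2-D1 (chr17:35262894-35263093, plus strand): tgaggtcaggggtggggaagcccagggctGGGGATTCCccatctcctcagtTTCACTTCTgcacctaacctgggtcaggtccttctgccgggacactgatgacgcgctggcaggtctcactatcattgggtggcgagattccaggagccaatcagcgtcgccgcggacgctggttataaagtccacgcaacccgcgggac
H2-Q6 (chr17:35424650-35424849, plus strand): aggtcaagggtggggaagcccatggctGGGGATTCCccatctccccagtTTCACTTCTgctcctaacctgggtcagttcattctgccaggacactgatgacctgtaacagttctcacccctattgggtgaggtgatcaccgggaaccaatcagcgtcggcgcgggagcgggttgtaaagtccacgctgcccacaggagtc
H2-Q7 (chr17:35438955-35439154, plus strand): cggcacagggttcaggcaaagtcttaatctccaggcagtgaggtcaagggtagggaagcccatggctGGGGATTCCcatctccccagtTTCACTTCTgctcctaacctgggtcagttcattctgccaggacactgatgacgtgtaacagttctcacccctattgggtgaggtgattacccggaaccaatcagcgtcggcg
H2-T23 (chr17:36032702-36032901, minus strand): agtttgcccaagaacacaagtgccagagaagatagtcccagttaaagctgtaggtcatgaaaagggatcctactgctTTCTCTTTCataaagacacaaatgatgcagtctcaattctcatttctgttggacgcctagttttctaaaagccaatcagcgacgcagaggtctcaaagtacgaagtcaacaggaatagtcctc
B2m (chr2:122147487-122147686, plus strand): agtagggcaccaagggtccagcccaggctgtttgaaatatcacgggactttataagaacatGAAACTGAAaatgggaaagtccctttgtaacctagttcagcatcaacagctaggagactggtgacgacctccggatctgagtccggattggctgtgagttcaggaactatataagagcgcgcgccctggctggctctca
Tap1 (chr17:34187356-34187555, plus strand): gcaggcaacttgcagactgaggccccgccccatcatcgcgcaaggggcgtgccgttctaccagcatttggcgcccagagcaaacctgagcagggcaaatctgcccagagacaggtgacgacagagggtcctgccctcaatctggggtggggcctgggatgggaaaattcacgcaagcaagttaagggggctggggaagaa
Psmb5 (chr14:54617996-54618195, minus strand): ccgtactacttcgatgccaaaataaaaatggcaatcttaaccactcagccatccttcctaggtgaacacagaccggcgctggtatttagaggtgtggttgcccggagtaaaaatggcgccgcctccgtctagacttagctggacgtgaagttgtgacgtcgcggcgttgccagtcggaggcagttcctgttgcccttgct
In the 250 bases before a start, TTCACTTCT was found in 7 windows of 6 members, H2-K1, H2-D1, H2-Q4, H2-Q6, H2-Q7 and H2-M3, and in 0.374% of 32851 RefSeq windows of that length. GGGNNTTCC was found in 6 windows, those of the first 5 of these genes, and in 4.98% of windows. GAAANNGAA was found in 4 windows, those of H2-T22, H2-T23, B2m and Erap1, and in 7.13% of windows. None of the 3 was found in the windows of Tap1, Tapbp, Psmb8, Psmb9, Psmb10 or Psmb5. Also searched were TTCNNNGAA, found in 2 windows of members, those of H2-M3 and Psmb8 (7.02% of all windows), CCAAT in 18 (33.8%) and TGACG in 17 (17.8%). The letters searched were chosen after these windows had been seen. Matches of different motifs did not overlap in the windows shown, and a match is a description of letters, not of a factor bound there.

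Library totals ran between 44620965 and 96237665 counts. The first principal component, 56.2% of the variance, set both EHE26 libraries, EHE17 replicate 3 and EHE6 replicate 3 apart from replicates 1 and 2 of EHE17 and EHE6, and the labels name no batch. These sides are called the second set (with EHE26) and the first set, and fits that use them are given below. The split was taken from these same counts, so such fits are no independent check on the lines. EHE17 replicate 3 scored 41.7 on the component, against 126 to 148 for the other libraries of the second set. The endothelial markers Pecam1, Cdh5 and Erg were read at 42.0 CPM or more in every library, while Cldn5 had 7.95 and 0.526 CPM in EHE26, against 279 to 770 CPM in EHE17 and 1.05 to 403 CPM in EHE6. Kdr had 102 and 46.2 CPM and Tie1 202 and 37.3 CPM in EHE26, below all EHE17 libraries. The summed CPM (counts scaled to a common library size after TMM normalization) of 10 endothelial markers was 4961 and 3891 in EHE26, 6159 to 10035 in EHE17 and 2665 to 12076 in EHE6. Of these 10, 0 had a positive log2 fold change in EHE26 against EHE6 (median -1.44). In EHE26 6 of the 10 lay below all EHE17 libraries, where 20.3% of all tested genes did. The 10 fibroblast and mural markers summed to 1168 and 444 CPM in EHE26, 1129 to 1811 in EHE17 and 497 to 1112 in EHE6. The 5 epithelial markers summed to 0.515 and 0.263 CPM in EHE26, 0.281 to 14.9 in EHE17 and 0.189 to 22.1 in EHE6. The 14 leukocyte markers summed to 46.9 and 42.3 CPM in EHE26, 32.3 to 72.1 CPM in EHE17 and 27.8 to 43.3 CPM in EHE6. Of the 12 tested, 9 had a positive log2 fold change in EHE26 against EHE17 (median 0.41) and 3 in EHE26 against EHE6 (median -0.16). By edgeR 0 of the tested endothelial and leukocyte markers were called in any comparison. DESeq2 called 3 endothelial markers lower in EHE26 against EHE6 and 2 in EHE26 against EHE17, and 1 leukocyte marker lower in EHE26 against EHE6. Their part in the results was not tested. In such bulk samples fewer cells with a transcript and less transcript per cell cannot be told apart.

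EHE26 carried far more class I transcript than EHE17 or EHE6. The 34 genes took 1.66% and 1.39% of all counts in the EHE26 libraries, against 0.404%, 0.388% and 0.654% in EHE17 and 0.365%, 0.294% and 0.368% in EHE6. The heavy chains with B2m alone took 1.17% and 0.958% in EHE26, against 0.128%, 0.122% and 0.301% in EHE17 and 0.0573%, 0.0521% and 0.0846% in EHE6. The EHE26 libraries stood above all others in both shares, and EHE17 stood above EHE6 without overlap.

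A gene is said to be called where the adjusted p of edgeR's quasi-likelihood test, with Benjamini-Hochberg adjustment over all 18882 tested genes, is under 0.05 and the fold change is 1 or more in size on the log2 scale. In EHE26 against EHE6, 15 of 34 members were called higher and 0 lower, where 1.1% of all tested genes were called higher, 0.159% lower and 1.26% either way. In EHE26 against EHE17, 8 were called higher and 0 lower, against 0.89% of all tested genes higher, 0.185% lower and 1.08% either way. In EHE17 against EHE6, 1 was called higher and 0 lower, against 0.0794% of all tested genes higher, 0.0636% lower and 0.143% either way. At an unadjusted p under 0.05 the same test gave 22, 21 and 14 members higher in these comparisons and 0 lower in each, where 15.9%, 16.6% and 6.9% of all tested genes passed either way. DESeq2 called 18, 17 and 7 members higher and 0 lower, where of its 31084 genes 2.1%, 2.15% and 0.788% were called higher and 3.04%, 3.31% and 0.476% lower. The median log2 fold change of the members was 1.48 in EHE26 against EHE6, 1.15 in EHE26 against EHE17 and 0.63 in EHE17 against EHE6, where the medians of all tested genes were -0.11, -0.11 and -0.03.

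The libraries of the lines did not overlap for 25 members in EHE26 against EHE6, 24 of them above and 1 below, where 16% of all tested genes lay above and 15.3% below. In EHE26 against EHE17, 23 members lay above and 1 below (18.7% and 20.3% of all tested genes), and in EHE17 against EHE6, 13 lay above and 0 below (7.25% and 4.94%). For 12 members every EHE26 library lay above every EHE17 library and these above every EHE6 library. The share of all tested genes in this order was not counted, so the 12 are a description only. They were H2-K1, H2-D1, H2-Q4, H2-Q6, H2-Q7, H2-T23, H2-M3, B2m, Tap1, Psmb9, Erap1 and Nlrc5. Of the 34 members, 20 had their highest EHE17 level in replicate 3, and 16 had their highest EHE6 level in replicate 3, with 4 and 9 at their lowest there, the libraries of these lines that fall in the second set.

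**Figure D1:**
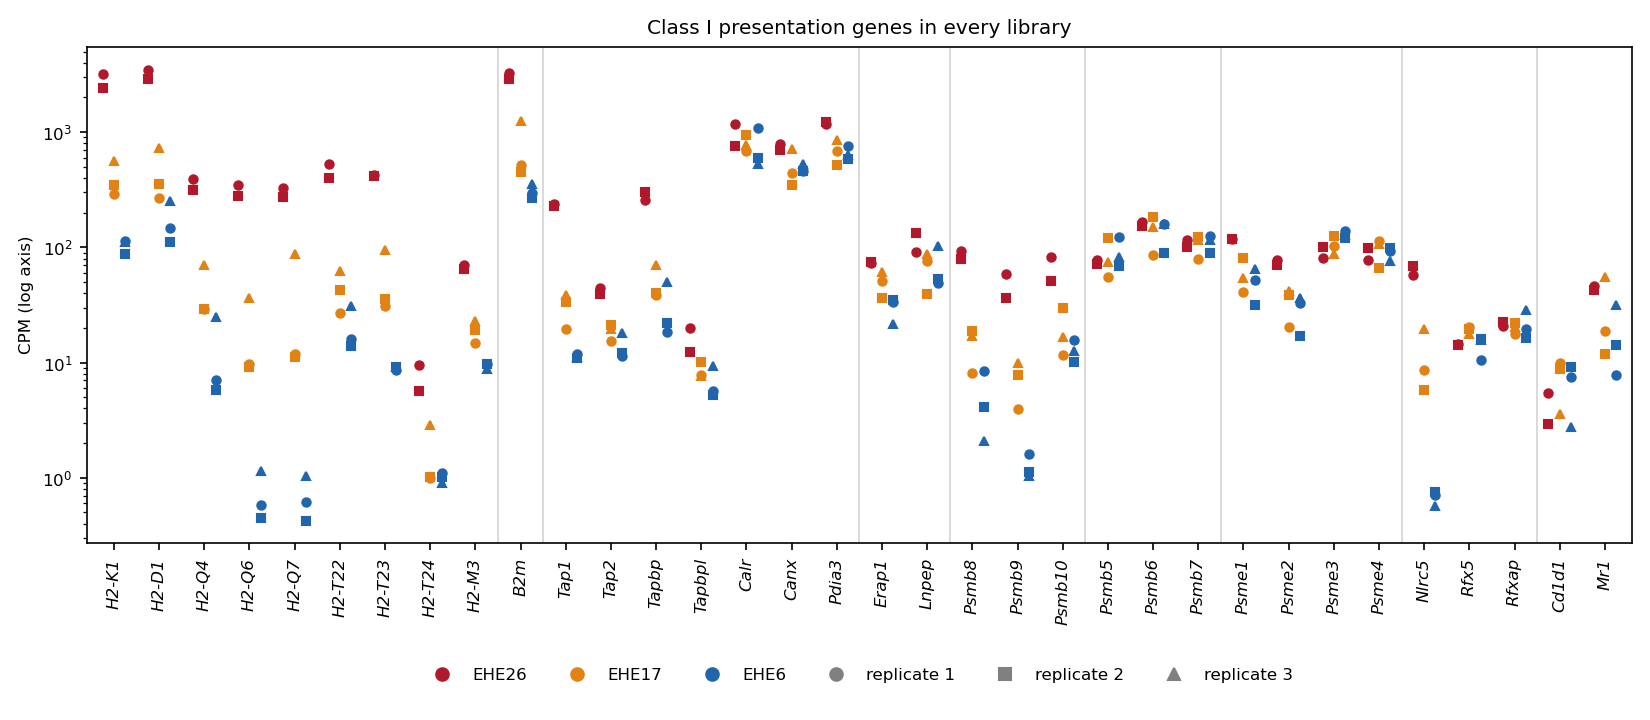
CPM (log axis) of the 34 genes in each library, grouped by role from heavy chains at the left to lipid and metabolite presenters at the right, with red for EHE26, orange for EHE17, blue for EHE6 and a marker shape for each replicate number. The heavy chains, B2m, Tap1, the inducible subunits Psmb8, Psmb9 and Psmb10 and Nlrc5 are spread by line with EHE26 at the top, while Psmb5, Psmb6 and Psmb7 overlap between the lines.

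The classical heavy chains H2-K1 and H2-D1, which present peptides to CD8 T cells, were both higher in EHE26 than in either other line. H2-K1 (chr17:33996017-34000347, minus strand, GENCODE M21 on GRCm38) had 3225 and 2401 CPM in EHE26, against 293, 346 and 562 CPM in EHE17 and 113, 86.9 and 111 CPM in EHE6. The 3 lines did not overlap. Its log2 fold change was 4.76 ± 0.37 (SE) in EHE26 against EHE6 (27.2-fold, edgeR adjusted p = 0.00159), and this call held whichever library was left out. It was 2.81 ± 0.35 in EHE26 against EHE17 (edgeR adjusted p = 0.013), a call lost without EHE17 replicate 1 (0.088), EHE17 replicate 2 (0.0844), EHE26 replicate 1 (0.1) or EHE26 replicate 2 (0.066). In EHE17 against EHE6 it was 1.95 ± 0.32 and was not called (edgeR adjusted p = 0.0913).

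H2-D1 (chr17:35262730-35267499, plus strand) had 3493 and 2919 CPM in EHE26, against 267, 353 and 728 CPM in EHE17 and 146, 112 and 253 CPM in EHE6. The lines again did not overlap, though EHE17 replicate 1 and EHE6 replicate 3 lay close together. The log2 fold change was 4.23 ± 0.53 in EHE26 against EHE6 (edgeR adjusted p = 0.0101), a call lost without EHE6 replicate 1 (0.0802), EHE6 replicate 2 (0.0547) or EHE26 replicate 1 (0.0589). It was 2.84 ± 0.50 in EHE26 against EHE17 (edgeR adjusted p = 0.0483), called in 2 of the 8 fits with 1 library omitted and lost without replicates 1 or 2 of any line (adjusted p 0.0672 to 0.227). In EHE17 against EHE6 it was 1.40 ± 0.46 (edgeR adjusted p = 0.531). H2-K1 and H2-D1 together made up 76.6% and 75.6% of heavy chain counts per kilobase in EHE26, 80.8%, 81.7% and 78.0% in EHE17 and 84.0%, 81.2% and 82.4% in EHE6, so the other 7 heavy chains held a somewhat larger share in EHE26.

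Of those other heavy chains, of the Q, T and M regions, H2-Q6 and H2-Q7 had the largest fold changes of the 34 genes in EHE26 against EHE6. Both encode the Qa-2 antigen and were near the lower limit of reading in EHE6. H2-Q6 had 345 and 277 CPM in EHE26, against 9.75, 9.23 and 36.1 CPM in EHE17 and 0.579, 0.452 and 1.13 CPM in EHE6. H2-Q7 had 326 and 275 CPM in EHE26, against 11.9, 11.2 and 87.8 CPM in EHE17 and 0.620, 0.423 and 1.03 CPM in EHE6. The lines did not overlap for either gene, and EHE17 replicate 3 was the highest EHE17 library for both.

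In EHE26 against EHE6 the log2 fold change of H2-Q6 was 8.76 ± 0.82 (434-fold, edgeR adjusted p = 0.00296), called in all 8 fits that left out 1 library. That of H2-Q7 was 8.77 ± 1.11 (edgeR adjusted p = 0.0106), lost without EHE6 replicate 1 (0.0862) or EHE6 replicate 2 (0.0692). In EHE26 against EHE17 H2-Q6 was called (4.08 ± 0.67, edgeR adjusted p = 0.0381), a call lost without replicates 1 or 2 of any line. H2-Q7 was not called (3.03 ± 0.88, edgeR adjusted p = 0.168), and its log2 fold change was 1.78 within the second set. In EHE17 against EHE6 neither was called in the fit of all libraries by line alone, at 4.68 ± 0.68 for H2-Q6 (edgeR adjusted p = 0.0649) and 5.75 ± 0.96 for H2-Q7 (0.104). A block on the replicate number rests on no shown pairing of replicates 1 and 2. With it both genes were called in EHE17 against EHE6, H2-Q6 at 4.47 (edgeR adjusted p = 0.00697) and H2-Q7 at 5.12 (0.0151). Both were also called there with the block and these lines alone (0.042 and 0.041), without the filter on low counts, with the set as a term, within the first set and by DESeq2. The genes are close copies: of the 50-base words of their transcripts, 34.97% of those of H2-Q6 and 26.5% of those of H2-Q7 also occur in another gene, so reads may be split between them and the rest of the Q region.

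H2-Q4, a further gene of the Q region, had 391 and 318 CPM in EHE26, against 29.1, 29.4 and 70.6 CPM in EHE17 and 7.11, 5.73 and 24.7 CPM in EHE6. Its lines did not overlap either, with EHE17 replicate 3 and EHE6 replicate 3 each the highest of its line. The log2 fold change was 4.82 ± 0.73 in EHE26 against EHE6 (edgeR adjusted p = 0.023), called in 3 of the 8 fits with 1 library omitted and lost without EHE6 replicate 1 (0.123), EHE6 replicate 2 (0.0874), EHE17 replicate 2 (0.0629), EHE26 replicate 1 (0.108) or EHE26 replicate 2 (0.0882), and also when the fit held the libraries of these lines alone (0.075). It was 3.04 ± 0.68 in EHE26 against EHE17 (edgeR adjusted p = 0.0925) and 1.78 ± 0.62 in EHE17 against EHE6 (0.576), called in neither. With the set as a term it was called in EHE26 against EHE17 (edgeR adjusted p = 0.0231) and in EHE17 against EHE6 (0.0169), the latter also within the first set (0.0472). Within the second set its log2 fold change in EHE26 against EHE17 was 2.33.

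In the T region, H2-T23 encodes Qa-1, a ligand of the NKG2A receptor of natural killer cells. It had 428 and 418 CPM in EHE26, against 31.3, 35.5 and 95.6 CPM in EHE17 and 8.65, 9.17 and 9.16 CPM in EHE6, with no overlap between lines. The log2 fold change was 5.55 ± 0.52 in EHE26 against EHE6 (edgeR adjusted p = 0.00296), called in all 8 fits that left out 1 library. It was 2.97 ± 0.47 in EHE26 against EHE17 (edgeR adjusted p = 0.0342), lost without replicates 1 or 2 of any line (0.0661 to 0.175), and 2.59 ± 0.44 in EHE17 against EHE6 (0.107, not called).

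H2-T22, a ligand of some gamma delta T cells, had 529 and 399 CPM in EHE26, against 27.1, 43.0 and 62.3 CPM in EHE17 and 16.0, 13.8 and 30.7 CPM in EHE6. EHE26 lay above the other lines, while EHE17 and EHE6 overlapped. It was called in EHE26 against EHE6 (4.52 ± 0.48, edgeR adjusted p = 0.00508), and in all 8 fits that left out 1 library. It was also called in EHE26 against EHE17 (3.396 ± 0.46, edgeR adjusted p = 0.019), which was lost without EHE17 replicate 1 (0.1), EHE17 replicate 2 (0.126), EHE26 replicate 1 (0.116) or EHE26 replicate 2 (0.0889). Of its 50-base words 53.5% occur in another gene, 31.2% in H2-T10, so its counts and those of H2-T10 cannot be fully separated.

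H2-M3, which presents N-formylated peptides of bacteria and mitochondria, had 70.2 and 64.7 CPM in EHE26, against 14.9, 19.3 and 23.1 CPM in EHE17 and 9.79, 9.68 and 8.82 CPM in EHE6. The lines did not overlap, and the spread within each was small. It was called in EHE26 against EHE6 (2.84 ± 0.27, edgeR adjusted p = 0.00296) in all 8 fits that left out 1 library. It was called in EHE26 against EHE17 too (1.82 ± 0.26, edgeR adjusted p = 0.0227), lost without replicates 1 or 2 of any line. Within the second set its log2 fold change there was 1.55. H2-T24, the least abundant heavy chain in EHE26, had 9.44 and 5.68 CPM in EHE26, against 0.994, 1.01 and 2.85 CPM in EHE17 and 1.10, 1.02 and 0.903 CPM in EHE6, and was called in none of the 3 comparisons (2.90 ± 0.61 in EHE26 against EHE6, edgeR adjusted p = 0.0806).

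B2m (chr2:122147686-122153083, plus strand), the light chain that every class I molecule needs at the cell surface, was the most abundant member per kilobase in each line. It had 3238 and 2902 CPM in EHE26, against 520, 447 and 1261 CPM in EHE17 and 295, 270 and 353 CPM in EHE6. The lines did not overlap, and EHE17 replicate 3 stood well above the other EHE17 libraries. The log2 fold change was 3.33 ± 0.46 in EHE26 against EHE6 (edgeR adjusted p = 0.0172), a call lost without EHE6 replicate 1 (0.106), EHE6 replicate 2 (0.0965), EHE26 replicate 1 (0.103) or EHE26 replicate 2 (0.0841). It was 2.05 ± 0.45 in EHE26 against EHE17 (edgeR adjusted p = 0.0875) and 1.28 ± 0.41 in EHE17 against EHE6 (0.522), called in neither. The summed counts per kilobase of the heavy chains were 85.0% and 76.4% of those of B2m in EHE26, against 41.5%, 60.1% and 41.4% in EHE17 and 33.0%, 28.6% and 40.1% in EHE6. Heavy chains were thus closest to the light chain in EHE26, and EHE17 and EHE6 did not overlap in this ratio, though EHE17 replicate 3 and EHE6 replicate 3 were nearly level.

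The loading factors are grouped here by role into dedicated and general ones, a grouping that the calls do not follow in full. Tap1 (chr17:34187553-34197225, plus strand), a subunit of the peptide transporter, had 237 and 230 CPM in EHE26, against 19.8, 33.7 and 38.6 CPM in EHE17 and 11.8, 10.95 and 11.1 CPM in EHE6. The lines did not overlap. It was called in EHE26 against EHE6 (4.37 ± 0.32, 20.7-fold, edgeR adjusted p = 0.00159) in all 8 fits with 1 library omitted, and in EHE26 against EHE17 (2.93 ± 0.30, edgeR adjusted p = 0.00875), a call lost without EHE17 replicate 2 (0.0549), EHE26 replicate 1 (0.0533) or EHE26 replicate 2 (0.0625). In EHE17 against EHE6 it was 1.44 ± 0.27 and not called (edgeR adjusted p = 0.15).

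Tap2, its partner in the transporter, had 44.2 and 39.1 CPM in EHE26, against 15.3, 21.2 and 19.6 CPM in EHE17 and 11.3, 12.2 and 18.1 CPM in EHE6. EHE26 lay above the others and EHE17 and EHE6 overlapped, with a log2 fold change of 1.59 ± 0.30 in EHE26 against EHE6 (edgeR adjusted p = 0.0577, not called). Tapbp, or tapasin, which bridges the transporter and the heavy chain, had 258 and 299.9 CPM in EHE26, against 38.8, 40.4 and 70.6 CPM in EHE17 and 18.4, 21.9 and 50.03 CPM in EHE6. It was called in EHE26 against EHE6 (3.21 ± 0.48, edgeR adjusted p = 0.023) in 3 of the 8 fits that left out 1 library, the call being lost without EHE6 replicate 1 (0.105), EHE6 replicate 2 (0.119), EHE17 replicate 2 (0.0629), EHE26 replicate 1 (0.105) or EHE26 replicate 2 (0.134), and with only these lines in the fit (0.0755). In EHE26 against EHE17 it was 2.48 ± 0.47 and not called (edgeR adjusted p = 0.0623), though it was called with the set as a term (0.0251). Within the second set the log2 fold change was 1.98. Of its exon bases 904 are shared with the antisense gene Gm19412, and whether counting used strand is not given in the sources used here.

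Tapbpl, the tapasin-like peptide editor, and the general chaperones Calr, Canx and Pdia3 (the thiol oxidoreductase ERp57) were called in no comparison. Calr had 1172 and 763 CPM in EHE26, against 683 to 936 CPM in EHE17 and 528 to 1079 CPM in EHE6, so all 3 lines overlapped. The log2 fold changes of Calr, Canx and Pdia3 in EHE26 against EHE6 were 0.39 ± 0.38, 0.63 ± 0.33 and 0.86 ± 0.28. Per kilobase, the dedicated factors Tap1, Tap2, Tapbp and Tapbpl summed to 14.2% and 17.5% of the general factors in EHE26, against 3.95%, 4.83% and 4.9997% in EHE17 and 1.77%, 2.73% and 4.94% in EHE6. Canx and Pdia3 of EHE26 lay above those of EHE6 in every library. In the ratio EHE26 stood above the others, and EHE6 replicate 3 reached the level of EHE17.

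Set against each other, heavy chains outnumbered loading factors in EHE26 and not in the other lines. The summed counts per kilobase of the 9 heavy chains were 2.96 and 2.74 times those of the 7 loading factors in EHE26, against 0.441, 0.528 and 0.828 times in EHE17 and 0.156, 0.178 and 0.316 times in EHE6. No overlap was seen between the lines, and replicate 3 was the highest library of both EHE17 and EHE6. As log2 ratios these were 1.51 ± 0.08 (SD, n = 2) in EHE26, -0.79 ± 0.47 (n = 3) in EHE17 and -2.28 ± 0.54 (n = 3) in EHE6, differences of 2.30 in EHE26 against EHE17, 3.79 in EHE26 against EHE6 and 1.49 in EHE17 against EHE6. With H2-K1 and H2-D1 over the dedicated factors alone the ratio was 3.99 ± 0.28 in EHE26, 3.41 ± 0.31 in EHE17 and 2.61 ± 0.27 in EHE6, and the differences shrank to 0.58, 1.38 and 0.80. No test was made of these ratios, which are scores over chosen genes.

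**Figure D2:**
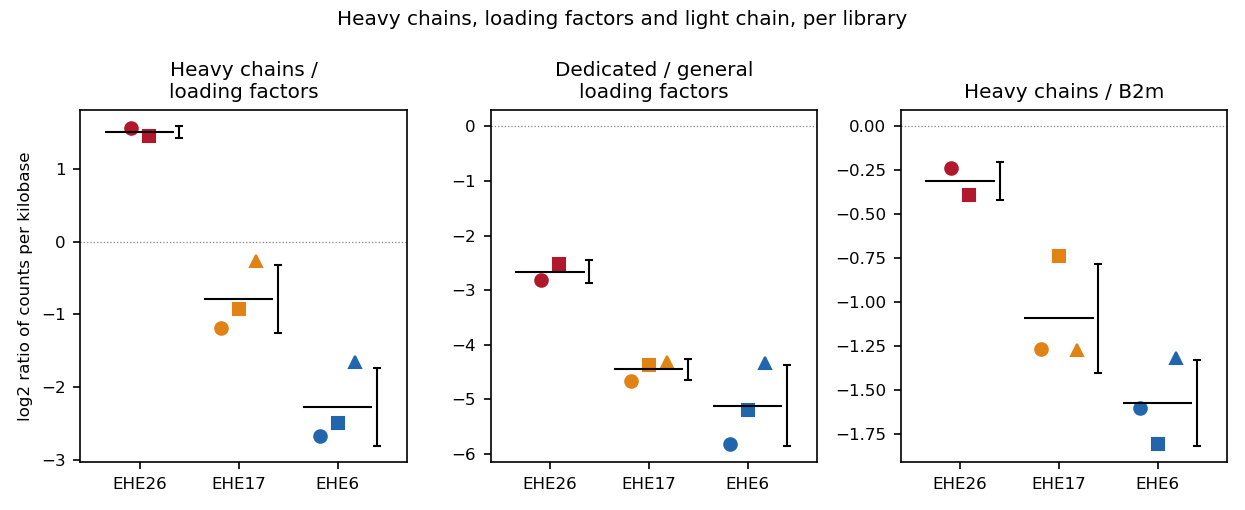
Log2 ratios of summed counts per kilobase in each library of EHE26 (red), EHE17 (orange) and EHE6 (blue), for heavy chains over loading factors, for Tap1, Tap2, Tapbp and Tapbpl over Calr, Canx and Pdia3, and for heavy chains over B2m. Horizontal lines are line means, bars are SD (n = 2 for EHE26, n = 3 for the others), circles, squares and triangles are replicates 1, 2 and 3, and heavy chains lie above loading factors in EHE26 alone of the 3 lines.

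The inducible catalytic subunits of the proteasome differed between the lines and the constitutive ones that they replace did not pass the test. Psmb8, which takes the place of Psmb5, had 92.8 and 79.1 CPM in EHE26, against 8.14, 18.9 and 16.9 CPM in EHE17 and 8.46, 4.12 and 2.08 CPM in EHE6. Psmb9 (chr17:34181987-34187764, minus strand), which takes the place of Psmb6, had 58.5 and 36.0 CPM in EHE26, against 3.95, 7.78 and 9.87 CPM in EHE17 and 1.62, 1.13 and 1.03 CPM in EHE6. Psmb10, which takes the place of Psmb7, had 82.3 and 51.4 CPM in EHE26, against 11.7, 29.6 and 16.7 CPM in EHE17 and 15.7, 10.1 and 12.7 CPM in EHE6. EHE26 lay above the other lines for all 3 genes, and EHE17 lay above EHE6 without overlap for Psmb9 alone.

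In EHE26 against EHE6 all 3 inducible subunits were called. Psmb9 was called (5.23 ± 0.50, 37.5-fold, edgeR adjusted p = 0.00322) in all 8 fits that left out 1 library. The Psmb8 call (4.13 ± 0.61, edgeR adjusted p = 0.0216) was lost without EHE6 replicate 2 (0.119), EHE17 replicate 2 (0.0528), EHE26 replicate 1 (0.118) or EHE26 replicate 2 (0.086), and with only these lines in the fit (0.0719). The Psmb10 call (2.38 ± 0.43, edgeR adjusted p = 0.0471) held in 2 of the 8 such fits, without EHE6 replicate 3 and without EHE17 replicate 2. It was lost in the others, with the set as a term (edgeR adjusted p = 0.0677) and with only these lines in the fit (0.057). Within the second set the log2 fold change of Psmb10 was 2.40. In EHE26 against EHE17 Psmb9 was called (2.71 ± 0.45, edgeR adjusted p = 0.0389). The call held in 1 of the 8 fits, the one without EHE6 replicate 3, and was lost in the others. With the set as a term it was lost too (edgeR adjusted p = 0.0641), and within the second set the log2 fold change was 2.26. Psmb8 (2.55 ± 0.58, edgeR adjusted p = 0.0943, and a log2 fold change of 2.35 within the second set) and Psmb10 (1.79 ± 0.43, 0.111) were not called. For EHE17 against EHE6 none of the 3 was called by edgeR, with adjusted p of 0.109 for Psmb9, 0.544 for Psmb8 and 0.93 for Psmb10, though 2 of them had an unadjusted p under 0.05 and DESeq2 called Psmb9.

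Psmb5 (chr14:54614119-54618022, minus strand) had 77.0 and 71.4 CPM in EHE26, against 55.3, 122 and 74.8 CPM in EHE17 and 122, 68.6 and 82.2 CPM in EHE6. Psmb6 had 166 and 154 CPM in EHE26, against 85.8, 184 and 150 CPM in EHE17 and 158, 89.4 and 159 CPM in EHE6. Psmb7 had 116 and 101 CPM in EHE26, against 80.0, 122.8 and 115 CPM in EHE17 and 126, 89.0 and 115 CPM in EHE6. All lines overlapped for all 3 genes, and 0 of 3 had an unadjusted p under 0.05 in edgeR or were called by DESeq2 in any comparison. Their log2 fold changes were -0.29 ± 0.39, 0.24 ± 0.38 and -0.02 ± 0.28 in EHE26 against EHE6, and -0.18 ± 0.39, 0.20 ± 0.38 and 0.03 ± 0.28 in EHE26 against EHE17. For EHE17 against EHE6 they were -0.12 ± 0.34, 0.05 ± 0.34 and -0.06 ± 0.25, and the sign of these small values turned in some fits with a library left out. Psmb5 shares 54.1% of its 50-base words with other genes, 46.8% with Gm3375.

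Within a library, the inducible subunits summed to 44.0% and 33.1% of the constitutive ones per kilobase in EHE26, against 7.90%, 9.31% and 8.87% in EHE17 and 4.73%, 4.97% and 3.97% in EHE6. All lines were apart, and EHE17 and EHE6 each varied little among replicates. As log2 ratios these were -1.39 ± 0.29 (SD, n = 2) in EHE26, -3.53 ± 0.12 (n = 3) in EHE17 and -4.46 ± 0.17 (n = 3) in EHE6. The pairs differed among themselves. Psmb10 was 143% and 102% of Psmb7 in EHE26, against 29.3%, 48.4% and 29.1% in EHE17 and 24.998%, 22.8% and 22.1% in EHE6, so in EHE26 it was the inducible subunit that reached its constitutive partner. Psmb8 was 32.1% and 29.5% of Psmb5 in EHE26, against 3.91%, 4.13% and 6.01% in EHE17 and 1.84%, 1.60% and 0.673% in EHE6. Psmb9 was 17.99% and 11.9% of Psmb6 in EHE26, against 2.35%, 2.17% and 3.36% in EHE17 and 0.523%, 0.646% and 0.331% in EHE6. Lengths are of all annotated exons, and 212 exon bases of Psmb9 lie on the other strand of Tap1, so the height of the ratios depends on the gene models.

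**Figure D3:**
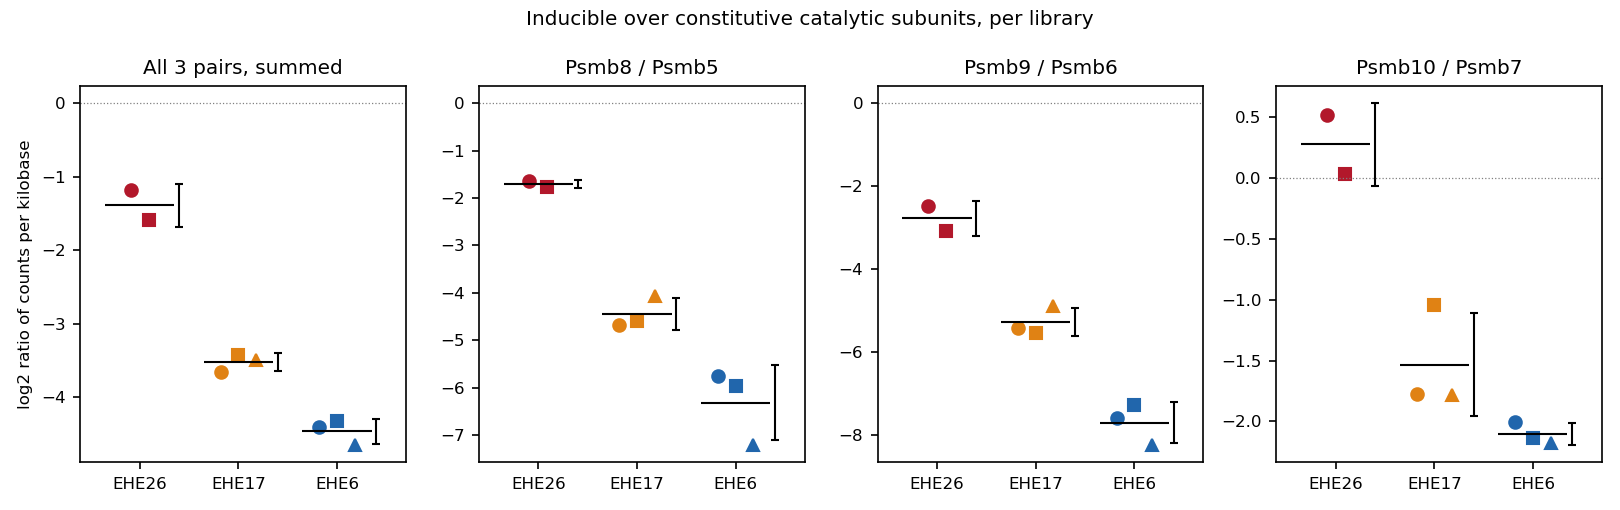
Log2 ratios of counts per kilobase of inducible over constitutive catalytic subunits in each library of EHE26 (red), EHE17 (orange) and EHE6 (blue), for the 3 pairs summed and for each pair, on separate y axes with a dotted line at 0 (equal levels). Horizontal lines are line means, bars are SD (n = 2 for EHE26, n = 3 for the others), circles, squares and triangles are replicates 1, 2 and 3, and EHE26 is the highest line in every panel, with Psmb10 over Psmb7 above 0.

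Of the 4 proteasome activators, 0 were called by edgeR or by DESeq2 in any comparison, and 2 had an unadjusted p under 0.05 in each comparison with EHE26. Psme1 and Psme2, the subunits of the interferon-responsive PA28 cap, had 118 and 118 CPM and 78.3 and 70.3 CPM in EHE26. Psme1 had 41.1 to 80.7 CPM in EHE17 and 31.8 to 65.4 CPM in EHE6, and Psme2 had 20.5 to 42.1 CPM in EHE17 and 16.98 to 36.0 CPM in EHE6. EHE26 lay above the other lines for both, with log2 fold changes against EHE6 of 1.24 ± 0.38 and 1.38 ± 0.41 (edgeR adjusted p = 0.196 and 0.189). Psme3, the nuclear PA28 gamma, was the member whose EHE26 libraries lay below all of EHE6, at 81.1 and 102 CPM in EHE26, against 120 to 139 CPM in EHE6 (-0.50 ± 0.25, edgeR adjusted p = 0.363). Psme4 (PA200) differed by -0.01 ± 0.30.

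The trimming peptidases were called in no comparison by edgeR, and DESeq2 called Erap1 higher in EHE26 against EHE6. Erap1, which trims peptides in the endoplasmic reticulum, had 72.7 and 75.1 CPM in EHE26, against 50.7, 36.7 and 61.2 CPM in EHE17 and 33.3, 34.9 and 21.6 CPM in EHE6. Its lines did not overlap, at a log2 fold change of 1.30 ± 0.31 in EHE26 against EHE6 (edgeR adjusted p = 0.114). Lnpep, an endosomal trimming peptidase of cross-presentation, had 90.6 and 132 CPM in EHE26, against 39.4 to 87.9 CPM in EHE17 and 48.7 to 102 CPM in EHE6. Of the presenters outside the peptide pathway, Cd1d1, which shows lipids to NKT cells, had 2.92 to 5.48 CPM in EHE26, 3.59 to 9.83 CPM in EHE17 and 2.77 to 9.16 CPM in EHE6. Mr1, which shows vitamin B metabolites to MAIT cells, had 46.4 and 42.7 CPM in EHE26, against 18.6, 11.8 and 55.1 CPM in EHE17 and 7.87, 14.1 and 31.7 CPM in EHE6, where replicate 3 was the highest library of both EHE17 and EHE6.

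Nlrc5 (chr8:94434356-94527272, plus strand) was the only regulator called. It had 57.1 and 69.0 CPM in EHE26, against 8.70, 5.73 and 19.7 CPM in EHE17 and 0.714, 0.748 and 0.567 CPM in EHE6. Each line kept its own range, and in EHE6 it was the least abundant of all 34 members per kilobase. The log2 fold change was 6.53 ± 0.58 in EHE26 against EHE6 (92.7-fold, edgeR adjusted p = 0.0024), called in all 8 fits that left out 1 library. It was 2.47 ± 0.49 in EHE26 against EHE17 (edgeR adjusted p = 0.0686, not called). Rfx5 and Rfxap, subunits of the RFX complex on which Nlrc5 acts at class I promoters, had 14.5 and 14.1 CPM and 20.7 and 22.4 CPM in EHE26. Rfx5 had 17.9 to 20.5 CPM in EHE17 and 10.5 to 16.1 CPM in EHE6, so all its EHE17 libraries lay above those of EHE6 and EHE26. Rfxap had 17.8 to 21.9 CPM in EHE17 and 16.3 to 28.8 CPM in EHE6, and neither gene was called in any comparison.

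Nlrc5 was also the only member called in EHE17 against EHE6, at 4.06 ± 0.50 (16.7-fold, edgeR adjusted p = 0.0367). The call held in 1 of the 8 fits that left out 1 library, that without EHE17 replicate 3 (0.0223). It was lost without EHE6 replicates 1 (0.241), 2 (0.201) or 3 (0.0572), EHE17 replicates 1 (0.117) or 2 (0.0735), and EHE26 replicates 1 (0.101) or 2 (0.106). An EHE26 library acts on this comparison through the shared estimate of spread and through the filter on low counts, which kept 20424 and 20367 genes in those last fits. With the replicate number as a block over all libraries 3 members were called, Nlrc5 (3.87, edgeR adjusted p = 0.0475), H2-Q6 and H2-Q7, where 22 of 18882 genes were called higher. That fit also blocks the EHE26 libraries, and with the block and the libraries of EHE17 and EHE6 alone 2 were called, H2-Q6 and H2-Q7, while Nlrc5 was lost (0.149). Within the first set (replicates 1 and 2) 4 were called, Nlrc5, H2-Q4, H2-Q6 and H2-Q7, with Nlrc5 at 3.31 (edgeR adjusted p = 0.0419). There 61 of 18535 genes were called higher. Within the second set, where replicate 3 of each line stands alone, Nlrc5 was at 5.11, H2-K1 at 2.34, Tap1 at 1.80 and Psmb10 at 0.39. With the set as a term 6 were called, Nlrc5, H2-K1, H2-Q4, H2-Q6, H2-Q7 and H2-T23, and without replicate 3 of both lines 5 were called. Over all genes 61 of 18882 were called higher with the set term, and 91 of 18961 without replicate 3 of both lines. With only the libraries of EHE17 and EHE6 in the fit 0 were called, Nlrc5 at an adjusted p of 0.135.

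For the comparisons with EHE26, whose libraries all lie in the second set, the within-set values rest on EHE26 against replicate 3 of the other line alone. Counts of calls are therefore not given for the second set. There the 15 members called in EHE26 against EHE6 in the fit of all libraries kept a positive log2 fold change. So did the 8 called in EHE26 against EHE17. H2-K1 was at 4.66 and H2-M3 at 2.93 in EHE26 against EHE6, and at 2.33 and 1.55 in EHE26 against EHE17. With the set as a term 14 members were called in EHE26 against EHE6 and 9 in EHE26 against EHE17. Over all 18882 genes that fit called 296 and 243 higher. Without replicate 3 of EHE17 and EHE6, 22 members were called in EHE26 against EHE6 and 18 in EHE26 against EHE17. In that fit line and set cannot be told apart, and calls rose over all genes too, with 9.13% and 8.46% called higher. The same fit called 0.48% of all genes higher in EHE17 against EHE6. Calls over all genes also moved with single libraries. In EHE26 against EHE6 76 genes were called higher without EHE6 replicate 2 and 834 without EHE6 replicate 3. In EHE26 against EHE17 1 was called higher without EHE17 replicate 2 and 749 without EHE6 replicate 3. Leaving out 1 library gave 8 to 18 member calls in EHE26 against EHE6, the fewest without EHE6 replicate 2. It gave 0 to 14 in EHE26 against EHE17, with 0 without EHE17 replicate 2, all by edgeR. Fits without an EHE26 library leave 1 library in that line. There the calls of the 8 members in EHE26 against EHE17 were lost, while some genes outside the members were still called higher. H2-K1, H2-Q6, H2-T22, H2-T23, H2-M3, Tap1, Psmb9 and Nlrc5 were the 8 members called in EHE26 against EHE6 whichever library was left out.

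**Figure D4:**
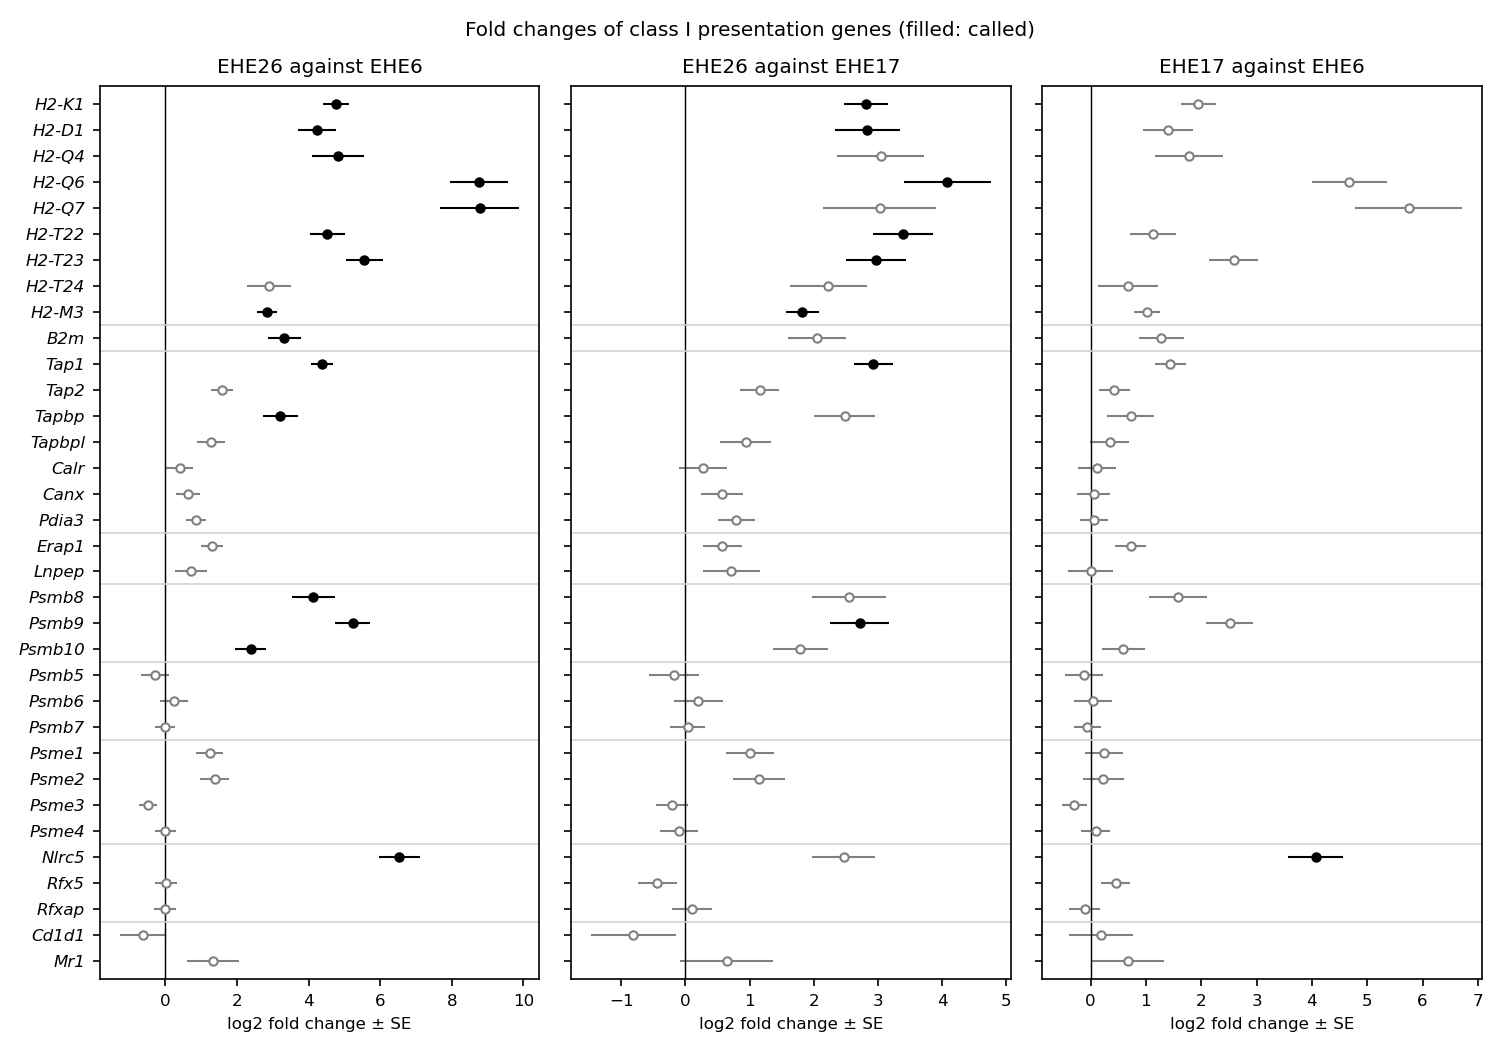
Log2 fold changes with SE bars of the 34 genes in EHE26 against EHE6, EHE26 against EHE17 and EHE17 against EHE6, on separate x axes with a line at 0. Filled points are called (edgeR, 15, 8 and 1 genes) and open points are not, with H2-Q6, H2-Q7 and Nlrc5 furthest right in EHE26 against EHE6 and Psmb5, Psmb6 and Psmb7 between -0.29 and 0.24 in every panel.

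The order of the members by level changed between the lines. Per kilobase, B2m led in EHE26 (3570 CPM per kilobase), followed by H2-D1 (1243) and H2-K1 (957), with Pdia3 (379) and Calr (336) behind them. In EHE17 B2m (863) was followed by Calr (278), Pdia3 (219), H2-D1 (174) and H2-K1 (136). In EHE6 B2m (356) was followed by Calr (256), Pdia3 (209), Canx (103) and Psmb5 (101), and H2-D1 (66.1) came seventh and H2-K1 (35.2) ninth. Nlrc5 was at 7.42 CPM per kilobase in EHE26, 1.34 in EHE17 and 0.0796 in EHE6.

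Genes around the pathway were taken from lists of neighbours of the machinery. Among them, the rest of the proteasome was not called with the inducible subunits. Of 14 genes of the constitutive core and its assembly and 18 of the regulatory particle, 0 were called in any comparison by edgeR or DESeq2, and 0 had an unadjusted p under 0.05 in edgeR. Their log2 fold changes in EHE26 against EHE6 ran between -0.42 and 0.41 in the core and between -0.42 and 0.28 in the regulatory particle. Of 11 cytosolic and endoplasmic reticulum peptidases and export factors 0 were called by either tool, with 1 at an unadjusted p under 0.05 in each comparison with EHE26. Of 8 genes of class II presentation 0 were called by edgeR, with 4 at an unadjusted p under 0.05 in EHE26 against EHE6 (1 higher, 3 lower) and 2 DESeq2 calls there (1 higher, 1 lower). Their summed level was 14.9 and 21.8 CPM in EHE26, 9.87 to 16.3 CPM in EHE17 and 12.7 to 23.4 CPM in EHE6, and Ciita, the class II transactivator, named here after its values were seen, had at most 0.240 CPM in any library.

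Of 10 other class I like genes 6 were tested, and H2-Q1 was called in EHE26 against EHE6 (3.76 ± 0.60, edgeR adjusted p = 0.0284). It had 3.20 and 3.27 CPM in EHE26, against 0.398, 0.498 and 0.361 CPM in EHE17 and 0.296, 0.141 and 0.273 CPM in EHE6, and the call was lost without replicates 1 or 2 of any line (up to 0.182). Of 8 ligands of natural killer and T cell receptors 6 were tested. Cd274, which encodes PD-L1, had 6.94 and 8.40 CPM in EHE26, against 0.671, 0.653 and 0.983 CPM in EHE17 and 0.202, 0.593 and 0.357 CPM in EHE6. The ranges of the lines were apart. It was called in EHE26 against EHE6 (4.31 ± 0.61, edgeR adjusted p = 0.0179) in 5 of 8 fits with 1 library omitted, lost without EHE6 replicate 1, EHE26 replicate 1 or EHE26 replicate 2 (up to 0.121), and in EHE26 against EHE17 (3.32 ± 0.58, edgeR adjusted p = 0.0466), where 1 of the 8 fits, without EHE6 replicate 3, kept it. Raet1e, a ligand of the activating receptor NKG2D, was called in EHE26 against EHE17 (1.70 ± 0.28, edgeR adjusted p = 0.0381) with the same 1 of 8 fits keeping the call, at 49.9 and 42.9 CPM in EHE26, against 11.4, 14.4 and 16.9 CPM in EHE17. EHE6 was level with EHE26 in Raet1e, at 54.9, 49.3 and 36.2 CPM.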

How the data were processed

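PolyA RNA of 8 libraries from 3 EHE cell lines was measured by RNA-seq, with kits named in the labels' protocols (RNeasy Mini, NEBNext Ultra II). The authors deposited whole-number read counts per Ensembl gene, and the 8 sample files equalled their columns of the count matrix. The tool HISAT2 and the build mm10 are named per the submitters' processing notes; the counting tool and its strand setting are not given in the sources used here. Totals of 44620965 to 96237665 counts set the precision of low genes.

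Counts were fitted with edgeR 4.0.16 (R 4.3.3, limma 3.58.1): TMM scaling, genes kept by filterByExpr, 1 quasi-likelihood fit of all 8 libraries with line as the term, and Benjamini-Hochberg adjustment over 18882 genes. A gene was called at adjusted p below 0.05 with a change of 1 or more in size on the log2 scale. A standard error is the absolute log2 fold change divided by the square root of F. The common biological coefficient of variation was 0.6. CPM were scaled by TMM, and levels per kilobase used the union of exons of GENCODE M21, which held 55141 of the 55401 identifiers. Ratios between gene groups were summed per kilobase within a library and not tested. The principal components were taken on log2 CPM (prior count 2). Promoter letters came from RefSeq windows on GRCm38.p6, and shared sequence was counted in words of 50 bases.

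The members and the lists of related genes were chosen with earlier results of these data known. Values per library are given for called members, for B2m, Nlrc5, H2-K1, H2-D1, Tap1 and the catalytic subunits, and for others by level or range. From each related list shown, called genes are named; a list and some single genes are not reported here. Deviations from line means of same-numbered EHE17 and EHE6 libraries correlated at 0.13, 0.18 and 0.57, and a replicate block was read beside that comparison. Crossing replicates 1 and 2 gave higher values (0.54 and 0.62), so for these the numbers show no pairing, and the block calls rest on none. EHE26 numbers did not pair. Alternatives were RLE scaling, no filter on low counts, no minimum fold, the block, sets of libraries, the compared lines alone, leaving out each library, and DESeq2 1.42.0. The procedure was tested on simulated data. For EHE26 against EHE6, with 18358 genes, 92% of genes changed by a log2 of 4 were recovered, 28% of those changed by 2 and 2% of those changed by 1. Only genes above a floor of expected counts were changed, and the split into sets was not simulated, so these rates do not cover low genes or that split.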

Additional observations from a re-analysis of the deposited data

How the results depend on the processing

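No member was called lower under any alternative run, and the members called in the reported fits stayed positive in each. RLE scaling and dropping the minimum fold left the counts at 15 in EHE26 against EHE6, 8 in EHE26 against EHE17 and 1 in EHE17 against EHE6. Leaving out 1 library gave 8 to 18, 0 to 14 and 0 to 4. For EHE17 against EHE6 the member count was 6 without the filter on low counts, 3 with the replicate block, 6 with the set as a term and 4 in the first set. It was 0 with these lines alone, 2 with these lines and the block, 5 without replicate 3 of both lines and 7 by DESeq2. Calls higher over all genes in these fits were, in the same order, 92, 22, 61, 61, 4, 12, 91 and 245, of 17892 to 31318 genes. For EHE26 against EHE17 the member count was 15 without the filter, 14 with the block, 18 without replicate 3 of EHE17 and EHE6, and 17 by DESeq2. Calls higher over all genes there were 478, 918, 1605 and 669, of 18882 to 31318 genes. In EHE26 against EHE6 the member count was 11 with these lines alone (H2-Q4, Tapbp, Psmb8 and Psmb10 lost) and 14 with the set as a term. It was 18 with the block, 18 by DESeq2 and 22 without replicate 3 of EHE17 and EHE6. Calls higher over all genes there were 110, 296, 674, 653 and 1732, of 17730 to 31084 genes. The median log2 fold change of the members in EHE26 against EHE6 was 1.91 with the block, 1.93 without both replicates 3, and 1.41 to 1.93 with 1 library left out. The inducible to constitutive difference was 3.97 (EHE26 against EHE6) and 1.62 (EHE17 against EHE6) as a mean of logs, and 3.36 and 1.12 without lengths. The heavy chain to loading factor difference was 1.38 (EHE26 against EHE6), 0.58 (EHE26 against EHE17) and 0.80 (EHE17 against EHE6) with H2-K1 and H2-D1 over the dedicated factors, and 1.77 as a mean of logs in EHE26 against EHE17. The cause of these shifts was not tested.

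Signs turned for the uncalled constitutive subunits. Psmb7 was 0.0242 with the block and 0.01 without both replicates 3 in EHE26 against EHE6, and -0.0586 with the set term and -0.0850 in the second set in EHE26 against EHE17; Psmb6 was -0.0847 in the second set in EHE17 against EHE6. With 1 library left out, Psmb7 ran between -0.157 and 0.0839 in EHE26 against EHE6. In EHE26 against EHE17, Psmb5 ran between -0.403 and 0.174, Psmb6 between -0.0572 and 0.424, and Psmb7 between -0.134 and 0.135. In EHE17 against EHE6, Psmb5 ran between -0.474 and 0.152, Psmb6 between -0.191 and 0.297, and Psmb7 between -0.188 and 0.107. Of 770 values of single genes under alternatives, 632 kept direction and side of the threshold, 89 lost a call, 30 gained one and 19 changed sign. The first set holds no EHE26 library and gave no value for its comparisons. EHE26 has 2 libraries, so each fit without one assumes that the other varies like the remaining lines. The numbers of EHE26 libraries are only shared numbers, so the block counts that involve it rest on no pairing.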
